A study of Mus musculus with 16 samples.

Results

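Keratins are the intermediate filament proteins of epithelial cells, and 10 of them are described here in grafted tumours of MC38, a colon carcinoma line of the mouse: Krt5, Krt14 and Krt15 of the basal layer of skin, Krt6a and Krt17 of stressed skin and its appendages, Krt10 of the suprabasal layers, and Krt7, Krt8, Krt18 and Krt19 of simple epithelia such as gut. They were chosen by name among 18480 entries measured per library, and all 10 had an entry. The choice was made with the level of Krt14 in view, which had been noted as higher with exercise than in control tumours. Values of that comparison are therefore given as a description, without a test. The labels place 16 libraries of tumour tissue grafted under the skin into control, exercise, anti-PDL1 and exercise with anti-PDL1 (called the combination here), with 4 libraries in each. All groups carried the same cell line, and the labels give no strain, age, dose, exercise schedule or control antibody for any of them. The labels name anti-PDL1 while the title of the series names PD-1, and the groups are called as labelled. It is not stated whether each library stands for its own animal, so the p-values rest on variation between samples that may be technical.

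A keratin filament is built from pairs of one type I and one type II chain, and an unpaired chain is usually degraded. Each tissue uses its own pairs: Krt5 with Krt14 or Krt15 in the basal layer, Krt6a with Krt17 after injury, Krt1 with Krt10 above the basal layer, and Krt8 with Krt18, often beside Krt7 and Krt19, in simple epithelia. The type I genes of the set lie together on mouse chromosome 11, from Krt10 (99385254 to 99397449) to Krt17 (100256215 to 100261029), with Krt14 at 100203162 to 100207510 (RefSeq, build GRCm38.p6). The type II genes lie on chromosome 15, from Krt7 (101412403 to 101427806) to Krt8 (101996711 to 102004342), and there Krt18 is the exception, a type I gene next to Krt8 (102028216 to 102032026).

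Type I keratins resemble each other where the central rod begins, and reads from such stretches can be shared between genes. The sequences of this stretch are shown because the level of Krt14 rests on telling it from its relatives. They were read from the coding sequences of GENCODE M21 transcripts (GRCm38), as the best match without gaps to 60 bases of Krt14 at coding positions 370 to 429, counted from 1 at the start codon. Capitals mark letters that differ from Krt14.
Krt14: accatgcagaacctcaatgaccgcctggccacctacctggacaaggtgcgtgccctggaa
Krt16: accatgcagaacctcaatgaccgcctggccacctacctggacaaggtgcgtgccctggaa
Krt17: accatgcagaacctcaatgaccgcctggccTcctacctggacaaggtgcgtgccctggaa
Krt15: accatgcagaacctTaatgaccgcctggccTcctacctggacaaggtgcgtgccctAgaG
Krt10: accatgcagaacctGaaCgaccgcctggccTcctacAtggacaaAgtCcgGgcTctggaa
Krt19: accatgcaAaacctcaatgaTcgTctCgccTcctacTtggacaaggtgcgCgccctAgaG
Krt18: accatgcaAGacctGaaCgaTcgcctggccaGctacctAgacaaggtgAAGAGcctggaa
Krt16, a keratin of stressed skin that is not among the 10, is identical to Krt14 over these 60 bases, while Krt17 differs at 1, Krt15 at 4, Krt10 at 8, Krt19 at 9 and Krt18 at 12.

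The longest coding run that Krt14 shares with Krt16 is 134 bases long (Krt14 coding positions 306 to 439), and the longest that it shares with Krt17 is 71 bases (1216 to 1286), shown next.
Krt14 and Krt16: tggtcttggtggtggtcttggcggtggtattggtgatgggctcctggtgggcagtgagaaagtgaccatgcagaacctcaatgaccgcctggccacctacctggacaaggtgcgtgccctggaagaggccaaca
Krt14 and Krt17: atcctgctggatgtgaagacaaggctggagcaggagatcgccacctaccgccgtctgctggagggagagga
Of all stretches of 50 bases in the Krt14 transcript, 14.4% also occur in a transcript of another gene, namely Krt16 or Krt17. The share is 62% for Krt6a, mostly with Krt6b, 29.7% for Krt8, mostly with its pseudogene Krt8-ps, and 12.2% for Krt5, and their values are uncertain to that extent. It is 0.72% for Krt18 and 0.666% for Krt15, and no such stretch of Krt19 was found in another gene. How the authors treated reads that fit several genes is not given in the sources used here. Krt16 measured between 0.15 and 3.05 FPKM (fragments scaled to transcript length and to the size of the library) and Krt17 between 0.00 and 0.17, both below the lowest Krt14 value of 9.14. These values rest on the same treatment of shared reads, and for Krt16 the share of such stretches is 37.6%, some of them in Krt14. The part of Krt16 reads in the Krt14 level was not tested.

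Of the 10 keratins, Krt14 was the only one with a mean of at least 1 FPKM. Over the 16 libraries it measured 40.8 ± 21.0 FPKM (SD, n = 16), and its place among all entries ordered by FPKM ran from 810 in combination 1 to 7193 in control 2. Krt10 measured 0.998 ± 0.234 FPKM and Krt19 0.845 ± 1.38. The remaining 7 had means under 0.1 FPKM, and Krt5, the usual partner of Krt14, was at 0 in 10 of 16 libraries. With Krt14 set aside, the other 9 members summed to between 0.89 and 5.97 FPKM per library. FPKM is scaled to transcript length, so levels were set side by side between these genes, within the limit of the shared stretches given above.

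**Figure D1:**
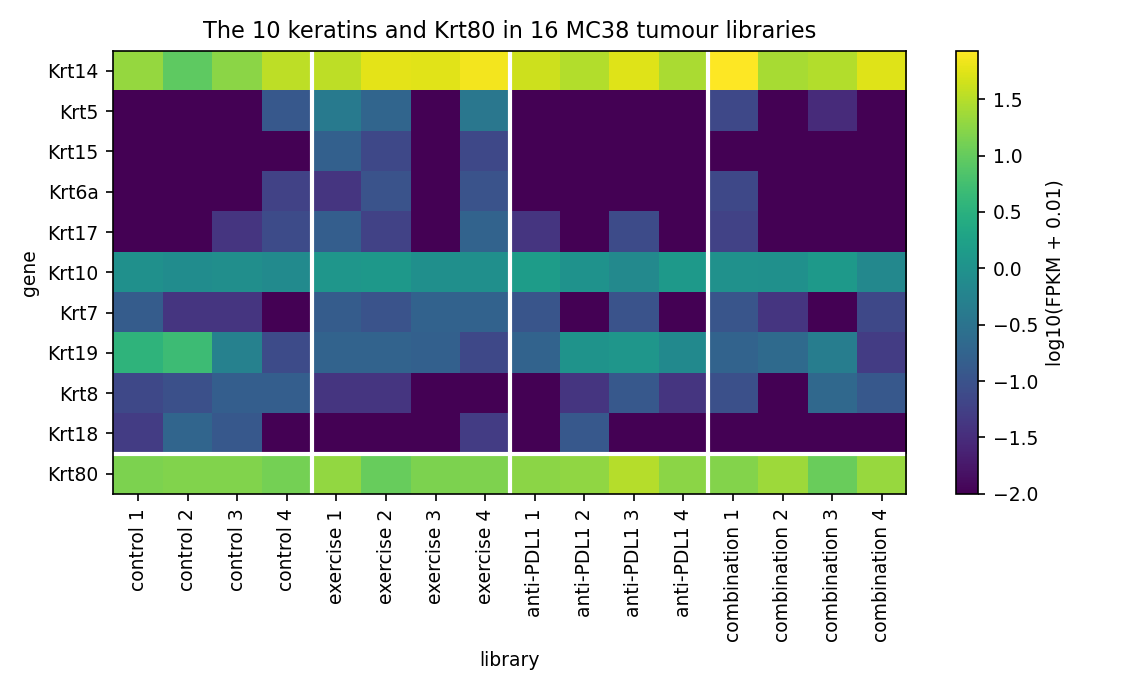
Levels of the 10 keratins and of Krt80 (rows) in the 16 libraries (columns, white lines between the 4 groups), as log10(FPKM + 0.01); the darkest colour is a listed value of 0. Krt14 and Krt80 stand at 9.14 FPKM or above in every library, Krt10 near 1 FPKM, and most other keratins at or near 0.

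The set is named for tumour and skin, and the data bear out neither tissue's usual keratin pair. Krt8 and Krt18, the pair of colon epithelium, did not exceed 0.20 and 0.18 FPKM in any library. Of 17 fixed marker genes of gut and other simple epithelium, 14 had an entry and 3 reached a mean of 1 FPKM: Lgals4, an intestinal galectin, at 9.55 ± 2.78 (SD, n = 16), Cdh1, which encodes E-cadherin, at 2.00 ± 0.553, and Muc1, a membrane mucin, at 1.31 ± 0.436. Epcam, a surface protein of most carcinomas, stayed between 0.02 and 0.17 FPKM, and 9 of the 14 had means under 0.1. Their summed level was 8.22 to 14.8 FPKM in control, 10.3 to 15.8 in exercise, 12.4 to 17.8 in anti-PDL1 and 11.7 to 16.5 in combination libraries. Vim, the intermediate filament gene of mesenchymal cells, measured 2586 ± 403 FPKM, and all 12 fixed mesenchymal genes had means of at least 1 FPKM, among them Fn1, Sparc and S100a4. The tumours were thus rich in vimentin transcripts and held transcripts of Krt7, Krt8 and Krt18 only in traces. Krt19, the remaining simple-epithelial member, reached 3.54 and 4.87 FPKM in controls 1 and 2.

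Defining genes of skin epithelium were near 0 as well. Trp63, the master regulator of basal keratinocytes, did not exceed 0.09 FPKM, Dsg3 and Dsc3, desmosomal cadherins of skin, 0.04 and 0.02, and Dsp, which anchors keratins to desmosomes, 0.03. Genes of the cornified surface layer were also near 0, with Lor at no more than 0.06, Ivl at no more than 0.03 and Flg at no more than 0.01 FPKM. Of 16 fixed basal layer genes 6 had means under 0.1 FPKM and 5 reached at least 1, among them Itgb4, Itga6, Dst and Sfn. Itgb4, an integrin chain of hemidesmosomes, was the highest at 49.2 ± 7.40 FPKM (SD, n = 16). Of 18 cornified layer genes, 15 had an entry, 9 had means under 0.1 FPKM and 3 reached 1, with Cdsn, which encodes corneodesmosin, at 19.1 ± 13 (SD, n = 16).

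The type II side of the keratin pool was held by a gene outside the set. Among 34 keratin entries, Krt14 and Krt80 were the only 2 with a mean of at least 1 FPKM, and 23 of the 24 entries that are not members lay under 1. Krt80 is a type II keratin of differentiating epithelia (chromosome 15, 101348315 to 101370162). It measured 17.0 ± 5.10 FPKM (SD, n = 16), within 10.41 to 31.29. Type II keratins other than Krt80 summed to between 0.09 and 1.17 FPKM per library, and all type I keratins to between 17.1 and 87.7. Krt14 held between 27.9% and 81.7% of the keratin sum of a library and Krt80 between 14.5% and 46.8%.

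Before the groups are compared, 2 libraries need mention. Controls 1 and 2 lay at -30.8 and -41.4 on the leading principal component (30.1% of the variance), while the other 14 libraries lay between -17.0 and 26.3. FPKM sums ran from 478672 to 529732 per library, and read depth is unknown. Skeletal muscle genes summed to 429 FPKM in control 2 and to between 3.08 and 18.7 elsewhere. Macrophage genes summed to 1482 and 1899 FPKM in controls 1 and 2, and to between 367 and 1241 elsewhere. Endothelial genes summed to 79.3 and 145 FPKM in controls 1 and 2, and to between 29.8 and 62.1 elsewhere. Adipocyte genes summed to 35 and 154 FPKM in controls 1 and 2, and to between 11.1 and 32 elsewhere. In bulk tissue, fewer cells of a type and less RNA per cell cannot be told apart.

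Krt14 was lowest in control tumours. It measured 20.59, 9.14, 17.47 and 34.53 FPKM in controls 1 to 4, and 34.12, 58.39, 57.61 and 71.92 in exercise libraries 1 to 4. The groups met at their edges, since exercise 1 lay just below control 4, and the other 3 exercise libraries lay above every control. The means were 20.4 ± 10.6 and 55.5 ± 15.7 FPKM (SD, n = 4 each), which is the difference for which the gene was noted. On the log2(FPKM + 1) scale, which understates changes of low values, it was 1.49, and without controls 1 and 2 it was 1.09. Leaving out single libraries gave 1.18 to 1.78, the lowest without control 2 and the highest without control 4. The 16 basal layer genes, which hold no member of the set, summed to 91.7 to 121 FPKM in control, 110 to 140 in exercise, 115 to 124 in anti-PDL1 and 102 to 131 in combination libraries, with Trp63, Dsg3 and Dsc3 at or near 0 throughout.

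In anti-PDL1 libraries 1 to 4 Krt14 measured 42.06, 30.27, 54.38 and 26.71 FPKM, and in combination libraries 1 to 4 it measured 85.13, 26.11, 29.57 and 54.34. The anti-PDL1 values overlapped with control 4 at their lower end and the combination values spanned a wider range than any other group. The means were 38.4 ± 12.5 and 48.8 ± 27.3 FPKM (SD, n = 4 each). By group mean the order was control, anti-PDL1, combination and exercise, and each group overlapped with its neighbour in that order.

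**Figure D2:**
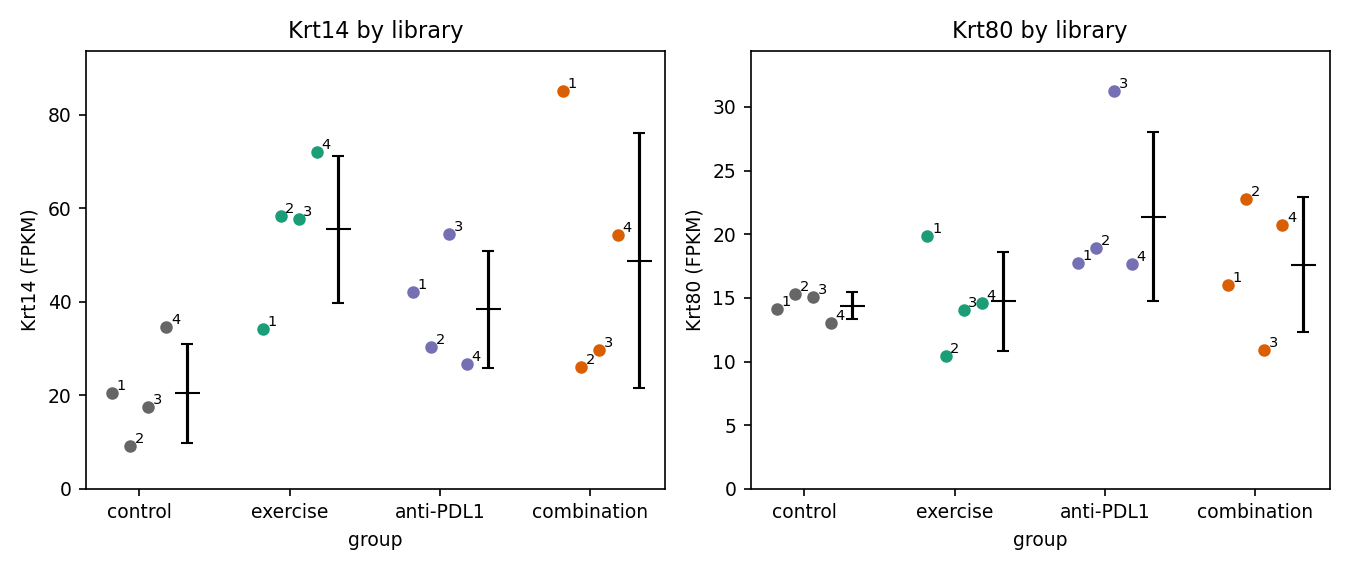
Krt14 (left) and Krt80 (right) in FPKM, with 1 numbered point per library and the group mean with its SD as a bar beside the points. Controls hold the 3 lowest Krt14 values, 9.14 to 20.59 FPKM, and combination 1 the highest at 85.13; the 4 anti-PDL1 libraries lie above all controls for Krt80.

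Whether Krt14 also differed with exercise among antibody-treated tumours was tested in the combination against anti-PDL1, whose 8 libraries are not those of the comparison in which the gene was noted. The error was estimated from all 16 libraries. The difference was 0.23 ± 0.41 on the log2(FPKM + 1) scale (standard error), with a 95% interval of -0.64 to 1.10 and an adjusted p of 0.98 in limma, and with only these 8 libraries in the fit the adjusted p was 0.996. The interval reaches from a lower to a higher level in the combination, and the 2 groups overlapped. Combination 1 set the direction, since without it the difference was -0.08 with an adjusted p of 0.974 in limma. Of 11868 genes tested, 0 passed the threshold of 0.05 in this comparison (background 0%), and 2.24% had groups that did not overlap. The remaining comparisons share control or exercise libraries with the one in which Krt14 was noted and are given as values: 0.96 for anti-PDL1 against control, 1.20 for the combination against control and -0.29 for the combination against exercise.

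Krt5 stayed at trace level beside Krt14. In exercise libraries 1 to 4 Krt5 measured 0.41, 0.18, 0.00 and 0.35 FPKM, in control 4 it measured 0.11, and it was listed at 0 in the other 3 controls and in all 4 anti-PDL1 libraries. Combination 1 had 0.06 and combination 3 had 0.02 FPKM, the smallest value of Krt5 above 0 in any library. Its mean was 0.235 FPKM in exercise and 0.0275 in control, and the control and combination libraries with the highest Krt14, control 4 and combination 1, had the highest Krt5 of their groups. At its highest, in exercise 1, Krt5 stood at 1.20% of the Krt14 level of the same library, where Krt14 was the lowest of the exercise group. In exercise 3 Krt14 reached 57.61 FPKM with Krt5 listed at 0, and the same held for anti-PDL1 library 3 at 54.38. Krt15, a keratin of the hair follicle bulge and basal layer, was above 0 in 3 of 16 libraries, namely exercise 1, 2 and 4, at 0.15, 0.06 and 0.06 FPKM.

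The stress keratins appeared in much the same libraries. Krt6a measured 0.03, 0.09 and 0.09 FPKM in exercise 1, 2 and 4, 0.05 in control 4 and 0.06 in combination 1, and was listed at 0 elsewhere. Krt17 measured 0.14, 0.05 and 0.17 FPKM in exercise 1, 2 and 4, did not exceed 0.07 in the 5 other libraries where it was above 0, and was listed at 0 in 8. All 4 of Krt5, Krt15, Krt6a and Krt17 were above 0 in exercise 1, 2 and 4 and in no other library, while in exercise 3 all 4 were at 0. These levels did not pass the filter, and how many fragments stand behind them is unknown. Trp63 was at 0.04, 0.00 and 0.04 FPKM in exercise 1, 2 and 4 and at 0.09 in control 2, and the part of skin cells in these traces was not tested.

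**Figure D3:**
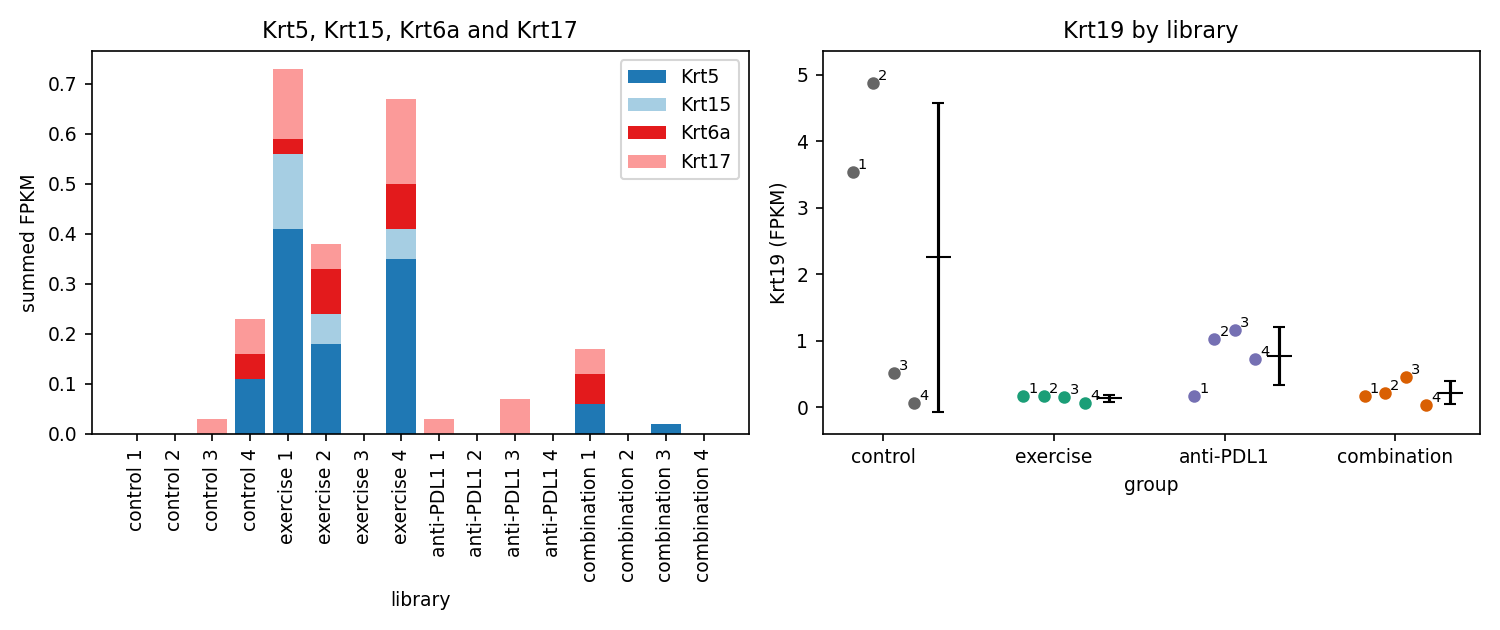
Left, summed FPKM of Krt5, Krt15, Krt6a and Krt17 in each library, stacked by gene. Right, Krt19 in FPKM with 1 numbered point per library and the group mean with its SD. The 4 traces are found together in exercise 1, 2 and 4, and Krt19 is highest in control 1 and control 2, at 3.54 and 4.87 FPKM.

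Krt10, the suprabasal type I keratin, was the most even member. It measured 0.845 ± 0.0751 FPKM in control, 1.06 ± 0.179 in exercise, 1.12 ± 0.340 in anti-PDL1 and 0.973 ± 0.255 in combination libraries (SD, n = 4 each). Its lowest value was 0.68 and its highest 1.50 FPKM, and no pair of the compared groups was separate. Krt1, its usual partner, had no entry in the table used here. Krt10 reached 1 FPKM in 6 libraries, among them anti-PDL1 libraries 1, 2 and 4 and no control. It passed the filter only through the anti-PDL1 group, where its mean was highest, so its differences in the filtered fit are given without a p. On the log2(FPKM + 1) scale they were -0.10 ± 0.14 for the combination against anti-PDL1 and 0.19 ± 0.14 for anti-PDL1 against control (standard error). In limma without a filter on low values the adjusted p was 0.413 for anti-PDL1 against control.

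Krt19, a type I keratin of ducts and simple epithelia without the tail domain of other keratins, varied more than the other low members. In controls 1 to 4 it measured 3.54, 4.87, 0.52 and 0.07 FPKM, so the control group held both its highest value and one of its lowest. Exercise libraries 1 to 4 had 0.17, 0.17, 0.15 and 0.06, anti-PDL1 libraries 0.17, 1.03, 1.16 and 0.73, and combination libraries 0.17, 0.22, 0.45 and 0.04 FPKM. Controls 1 and 2 stood far above all others, and controls 3 and 4 lay within the range of the other groups. Dmkn, a gene of skin and its appendages among the cornified layer markers, was high in the same 2 libraries, at 5.85 and 4.94 FPKM, and did not exceed 0.65 in the others. It was named after its values were seen, and the list it belongs to did not set these libraries apart. The cornified layer genes summed to 44.6 and 24 FPKM in controls 1 and 2, 47.8 in control 3 and 48.7 in combination 2. The sums of macrophage, endothelial and adipocyte genes given above were highest in controls 1 and 2, and the part of these cells in the Krt19 level was not tested.

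Krt19 passed the filter of at least 1 FPKM in at least 4 libraries only through controls 1 and 2 and anti-PDL1 libraries 2 and 3, where it was high, so its differences in the filtered fit are given without a p. On the log2(FPKM + 1) scale the combination differed by -1.08 from control, by -0.51 from anti-PDL1 and by 0.09 from exercise, and anti-PDL1 differed by -0.57 from control. In limma without a filter on low values the adjusted p was 0.546 for the combination against control, 0.464 for anti-PDL1 against control, 0.988 for the combination against exercise and 1 for the combination against anti-PDL1. Without control 4, the control with the lowest level, anti-PDL1 differed from control by -0.99. With any 1 of the 4 libraries above 1 FPKM left out, Krt19 did not pass the filter.

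The other simple-epithelial keratins were traces in every group. Krt7 was above 0 in 12 libraries and measured 0.135 ± 0.0332 FPKM in exercise and 0.0475 in the mean of each other group. Krt8 was above 0 in 12 libraries, with 0.06 to 0.14 FPKM in control and 0.00 to 0.03 in exercise, and in the other groups it reached 0.11 and 0.20. Krt18, its partner, was above 0 in 5 libraries, 3 of them controls, with 0.18 FPKM in control 2 as its highest value and 0 in all 4 combination libraries. Both chains of this pair were above 0 in 4 libraries, Krt8 alone in 8 and Krt18 alone in 1.

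Counted over the set, 3 of the 10 keratins passed the filter and could be tested, Krt14, Krt10 and Krt19. Krt10 and Krt19 passed it only through libraries where they were high, so for them the filtered counts are a description. In limma 0 of 3 passed an adjusted p of 0.05 for the combination against anti-PDL1, and 0 had an unadjusted p under 0.05, which 3.94% of all genes had. With Krt14 set aside, 0 of 2 passed for anti-PDL1 against control (background 0.253% of 11868 genes), for the combination against exercise (background 0%) and for the combination against control (background 0%). At an unadjusted p under 0.05 the counts in limma were 0, 0 and 1, beside 23.5%, 13.6% and 8.20% of all genes. That 1 was Krt19, which entered through the libraries where it was high, and nothing is read from it. Without a filter, when the members at trace levels were fitted too, 0 passed in each of the 4 comparisons. No member had separate groups in any of these 4 comparisons. Of the 11868 genes that passed the filter, 10.8%, 6.94% and 3.83% had them in the last 3. The 7 members with means under 0.1 FPKM did not pass it, and 2 groups that both hold a 0 cannot be separate. For these members nothing is read from the count. In exercise against control, which chose the set, Krt8 was the one member with separate groups, at the trace levels given. Of the genes that passed the filter 7.72% had separate groups there, but Krt8 did not pass it, so that share does not apply to it.

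**Figure D4:**
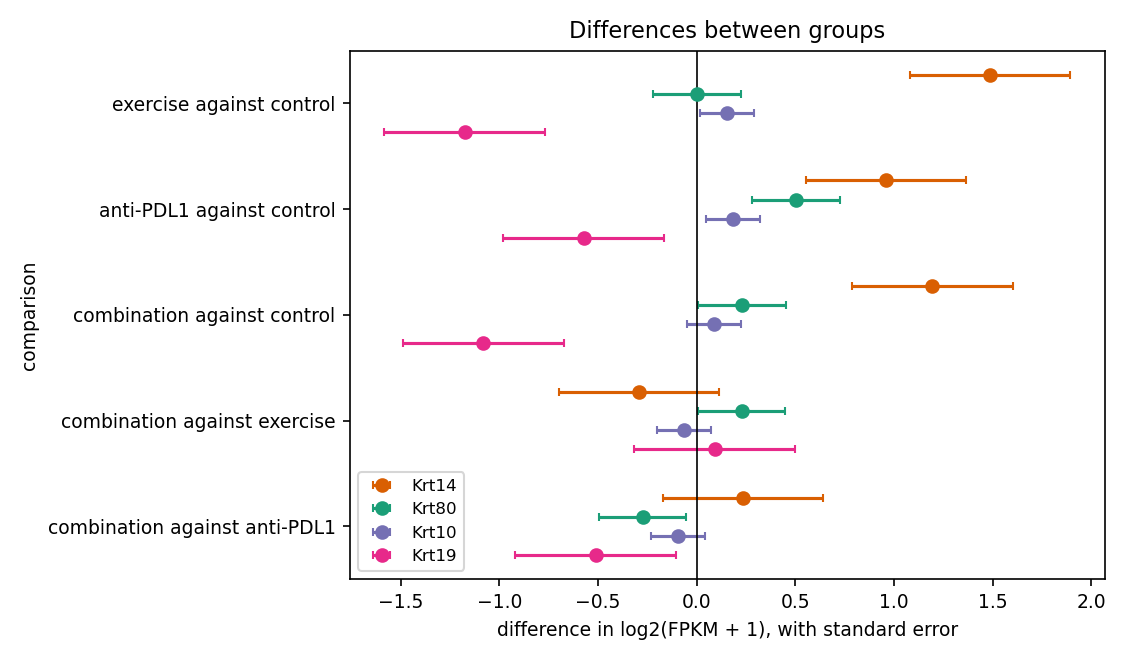
Differences in log2(FPKM + 1) with standard errors from one limma model of all 16 libraries, for Krt14, Krt80, Krt10 and Krt19 in 5 comparisons. Krt14 lies above 0 in the 3 comparisons with control, at 1.49, 0.96 and 1.20, which share the control libraries, and at 0.23 for the combination against anti-PDL1.

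Krt80 was compared beside the members as the other abundant keratin. It measured 14.12, 15.34, 15.11 and 13 FPKM in controls 1 to 4, and 17.72, 18.89, 31.29 and 17.67 in anti-PDL1 libraries 1 to 4. The 2 groups were separate, as were those of 10.8% of all genes tested. The difference was 0.50 ± 0.22 in limma (95% interval 0.03 to 0.98, unadjusted p = 0.0385, adjusted p = 0.189), which did not pass. Without anti-PDL1 library 3 it was 0.31 (adjusted p = 0.392 in limma), and over all alternatives the adjusted p lay between 0.146 and 0.621. Exercise libraries measured 14.7 ± 3.90 FPKM and combination libraries 17.6 ± 5.28 (SD, n = 4 each), and both overlapped with control. Krt13 and Krt16, both under a mean of 1 FPKM, are named after their values were seen. Krt16 measured 0.362 ± 0.153 FPKM in exercise and 1.58 ± 1.10 in combination libraries. It reached 1 FPKM only in control 3, combination 2 and 3, and anti-PDL1 libraries 3 and 4. Without the combination group, where its mean was highest, it would not pass the filter, so its difference is given without a p. The combination differed from exercise in Krt16 by 0.84 ± 0.27 on the log2(FPKM + 1) scale (standard error). Krt13 measured 0.360 ± 0.203 FPKM in exercise and 1.25 ± 1.32 in combination libraries (limma, adjusted p = 0.48).

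The genes that anchor and regulate keratins were described from fixed lists. Plec, which encodes plectin and links keratin filaments to hemidesmosomes, measured 92.6 ± 10.6 FPKM (SD, n = 16), and 8 of 12 linker genes were tested. For the combination against anti-PDL1, 5 of these 8 lay above 0 and 0 passed in limma, adjusted or not, with a median of 0.05, beside a median of 0.02 over all genes. Of 11 desmosome genes 4 were tested, and 0 passed in any of the 4 tested comparisons in limma. At an unadjusted p under 0.05 there were 2, Jup and Pkp3, for the combination against exercise, 1 each for anti-PDL1 and the combination against control, and 0 for the combination against anti-PDL1. Over all genes the shares were 13.6% for the combination against exercise, 23.5% for anti-PDL1 against control, 8.20% for the combination against control and 3.94% for the combination against anti-PDL1. Jup, which encodes plakoglobin, a desmosome and adherens junction protein, measured 7.19 ± 4.38 FPKM in control, 21.3 ± 8.66 in exercise, 6.62 ± 3.64 in anti-PDL1 and 7.60 ± 6.19 in combination libraries. The combination differed from exercise in Jup by -1.60 ± 0.54, with an adjusted p of 0.249 in limma, which did not pass. Cdsn measured 6.06 ± 2.40 FPKM in exercise and 26.2 ± 11.8 in combination libraries, with an adjusted p of 0.197 in limma.

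Of 15 epithelial regulators 14 had an entry, and 9 of these, among them Trp63, Grhl2 and Ovol1, had means under 0.1 FPKM. The 4 that were tested were high or moderate: Klf4, a Krüppel-like factor of skin and gut, at 162 ± 50.6 FPKM, Sox9, a factor of stem and progenitor cells of hair follicle and gut, at 102 ± 28.3, Tfap2a at 9.41 ± 1.64 and Klf5 at 2.84 ± 0.983 (SD, n = 16). In limma 0 of the 4 passed in the tested comparisons, and Klf4 alone had an unadjusted p under 0.05, at 0.0163 for anti-PDL1 against control and 0.044 for the combination against control, where 23.5% and 8.20% of all genes had one. For anti-PDL1 against control the list had 3 of 4 members above 0 and a median of 0.25, beside 5024 of 11868 and -0.04 over all genes. Klf4 measured 116 ± 33.4 FPKM in control and 191 ± 46.1 in anti-PDL1 libraries, with an adjusted p of 0.135 in limma. In exercise against control, where no test is given, 4 of 4 regulators and 6 of 6 tested basal layer genes lay above 0, with medians of 0.23 and 0.24, beside 5482 of 11868 and -0.02 over all genes. Of the mesenchymal genes 10 of 12 lay above 0, with a median of 0.19. Cornified layer genes went the other way, with 1 of 3 above 0 and a median of -0.64. Their sums of 8.98 to 16.3 FPKM in exercise lay below the 19 to 47.8 of control, in the comparison that chose the set. Of the 15 genes with an entry only 3 reached a mean of 1 FPKM, and Cdsn was the largest of them. Other lists had separate sums as well, higher in exercise. Desmosome genes summed to 12.1 to 18.5 FPKM in control and 18.8 to 38.3 in exercise, and mesenchymal genes to 4738 to 5933 and 5946 to 6841. Among single genes that passed the filter 7.72% had separate groups in this comparison, a share that does not apply to sums of lists. Of 10 dermal fibroblast genes 4 lay above 0 and 6 below, with a median of -0.22, while their summed level was 751 to 1501 FPKM in control and 1115 to 2197 in exercise libraries. The part of these cells in the Krt14 level was not tested.

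The genes whose pattern was most like that of Krt14 were named from Pearson's r of log2(FPKM + 1) over the 16 libraries, among the 5 highest of 11865 genes. They included Zfp651 at 0.897, Sdf2 at 0.888, Rasa3, a regulator of Ras-family GTPases, at 0.884, and Adamts7, a secreted metalloproteinase, at 0.879. Without controls 1 and 2 these 4 values lay between 0.792 and 0.874, and as deviations from the group means they lay between 0.797 and 0.835. For Krt19, the highest of the simple-epithelial members, the 5 most alike were Tmem45a, Rtn4rl2, Ptgis, Serpinb2 and Ndufa4l2, with r between 0.929 and 0.969. These rest in part on controls 1 and 2, without which r over 14 libraries lay between 0.646 and 0.826. All points share their libraries, and the members themselves were left out of the search.

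Relations between keratin partners could not be computed. Of the 6 known pairs considered, 0 had both chains at a mean of 0.1 FPKM or more. The most unequal was Krt5 with Krt14, at 0.0706 and 40.8 FPKM.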

How the data were processed

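RNA of MC38 tumour tissue was measured by sequencing in 16 libraries, 4 per group as the sample titles give them. The deposited tables hold FPKM computed by the authors, with 2 decimals, per the file headers. The submitters' processing notes name HISAT, Bowtie2 and the build GRCm38.p6 without versions, and the program that computed FPKM is not given in the sources used here. The tables hold no counts, so read depth is unknown and counting error cannot be given.

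Values were analysed as log2(FPKM + 1). The 11868 of 18480 entries that reached 1 FPKM in 4 or more libraries were fitted in one limma model (limma 3.58.1, R 4.3.3, trend and robust settings, group as the only term), with Benjamini-Hochberg adjustment over all of them at 0.05. The members and lists were chosen with earlier results of these data known. Named genes were the 10 members, other keratins with a mean of at least 1 FPKM, up to 4 members of each described list with the highest mean, those past the threshold, and the 5 most alike in pattern; Trp63, Dsg3, Dsc3, Dsp, Lor, Ivl, Flg, Epcam, Dmkn, Grhl2, Ovol1, Krt13 and Krt16 were named in addition, as defining markers or after their values were seen. Some genes that meet this rule are not reported here. The fit was tested on simulated data with independent normal noise and no outlying libraries, a setting without the like of controls 1 and 2. Of the genes called there, 2.58% to 5.88% were false, beside the threshold of 0.05.

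Shared stretches were counted in GENCODE M21 transcripts, on both strands, from 1 coding transcript per gene. Alternatives were pseudocounts of 0.1 and 0.01, other filters, scalings and limma settings, library weights, fits of 2 groups alone, a replicate block, and each library left out in turn. A fit lacking both controls 1 and 2 was chosen after seeing the data.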

Additional observations from a re-analysis of the deposited data

Results flagged for a closer look

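In groups of 4, a library was marked when its gap to the nearest other value exceeded Dixon's critical share of the range of the group, on the log2(FPKM + 1) scale. Of 38 groups looked at for the 10 keratins and Krt80, 7 were marked. Krt80 at 31.29 FPKM in anti-PDL1 library 3 was the one mark at an appreciable level, with the other anti-PDL1 libraries between 17.67 and 18.89. Chance marks about 1 in 20 groups of such values. The other 6 were single libraries above 0 in a group otherwise listed at 0, where a mark follows from the zeros themselves and the chance rate does not apply: Krt5 at 0.11 FPKM and Krt6a at 0.05 in control 4, Krt17 at 0.05 and Krt6a at 0.06 in combination 1, and Krt18 at 0.04 in exercise 4 and at 0.11 in anti-PDL1 library 2. How many fragments stand behind these values is unknown. Control 4 and combination 1 were each marked for 2 keratins of skin.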

How the results depend on the processing

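The count of members past the threshold was 0 in each of the 4 tested comparisons under all 27 alternatives, but few members could be called. The fit without a filter held 10 members, or 9 where Krt14 was not tested. With a mean of at least 5 FPKM required, it held Krt14 alone for the combination against anti-PDL1 and 0 members for the others, so a count of 0 there says nothing. Krt14 for the combination against anti-PDL1 kept its direction in 26 of 27, with adjusted p between 0.879 and 1 in limma. Leaving out single libraries gave -0.083 to 0.473, and the reversal came without combination 1. Krt10 for the combination against exercise reversed to 0.0084 without combination 4, and leaving out single libraries gave -0.1426 to 0.0084. Krt10 had 26 alternatives, Krt80 27 and Krt19 21, since Krt19 did not pass the filter in the others, and no other direction reversed among those that gave a value. With a pseudocount of 0.01 the Krt19 difference moved from -0.51 to -1.85 for the combination against anti-PDL1 and from -1.08 to -2.40 for the combination against control, and that of Krt10 from 0.19 to 0.35 for anti-PDL1 against control. The description of Krt14 in exercise against control stayed above 0 in 13 alternatives, from 1.09 to 1.78, with 1.18 and 1.78 as the ends when single libraries were left out. With the replicate number as a block, the counts stayed at 0, and Krt14 differed by 0.23 (adjusted p = 0.984, limma). The numbers are not known to pair the libraries, and 6 of 24 same-numbered pairs had deviations that correlated above 0.1. No alternative was run for the partner relations, since no pair could be computed. Since read depth is unknown, no limit can be given for the keratins listed at 0.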

Other observations

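The neighbours of Krt14 on chromosome 11 were looked at after its values were seen. Within 500 kb on each side 26 entries were found, and 16 of them were tested. For the 3 other keratins of the cluster that passed the filter, Pearson's r with Krt14 over 16 libraries was -0.593 for Krt13, -0.712 for Krt19 and -0.151 for Krt16. For deviations from the group means it was -0.565 for Krt13, -0.493 for Krt19 and -0.385 for Krt16. Krt19 and Krt16 passed the filter through libraries where they were high. Control 2 had both the highest Krt19, at 4.87 FPKM, and the lowest Krt14, at 9.14. No r without controls 1 and 2 was computed for these keratins. P3h4, which encodes a protein of collagen modification in the endoplasmic reticulum (100408467 to 100414716), had the highest r, at 0.843, and 0.818 for deviations from the group means. Jup (100368856 to 100397839) had 0.569, and Eif1, at 469 FPKM on average, had 0.248. Fkbp10, which also acts on collagen and lies next to P3h4, had 0.340. The points share their libraries and the values are a description.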
